A study of Mus musculus with 16 samples.

Results

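B cells from the spleens of 3'RR-deficient mice, in which the 3' regulatory region (3'RR) behind the immunoglobulin heavy chain genes is missing, were compared with wild-type B cells on the 8 arrays of slide 1, out of 16 in the series. There were 4 deficient arrays, numbered 9, 10, 11 and 12, and 4 wild-type arrays, numbered 2, 5, 6 and 8. Values by array are given in that order. The arrays were chosen by their slide and labelled genotype, and no measured value entered the choice. The cells had been purified from spleen with beads against B220, a surface form of CD45 carried by B cells, and total RNA was labelled with Cy3. Per the labels, every sample entered with 0.2 microgram of RNA and a RIN of 9. The deficient mice are described as carrying a knocked-out IgH allele of 129 origin on a BALBC background, with BALBC as their strain, and the wild-type mice have 129 as their strain. Genotype and strain therefore cannot be told apart here. Genotype also cannot be told apart from the row on the slide, since wild-type arrays held positions 1 to 4 and deficient arrays positions 5 to 8. Age and sex are not given in the labels. Nothing in the labels ties each array to a separate animal, and the p-values then reflect only how far these samples spread, which can be technical in part.

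The heavy chain locus lies at the end of chromosome 12. Its variable segments are joined to the mu and delta constant genes, which give IgM and IgD, and class switch recombination moves the joined segment to a gamma, epsilon or alpha constant gene further downstream. Each switched constant gene also has its own promoter, from which an unjoined germline transcript starts before switching. The 3'RR is a group of enhancers beyond the alpha gene that drives both the germline transcripts and the assembled heavy chain gene, above all in activated and antibody-secreting cells. In resting B cells most heavy chain RNA is of the mu and delta kind. Because RNA came from a pool of cells, fewer cells of a type and less RNA per cell cannot be told apart.

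Levels are log2 processed signals relative to the array's 75th percentile, so that 0 is the 75th percentile and each unit is a doubling. They compare arrays for 1 probe and not probes with each other. Differences are deficient minus wild type with the standard error (SE) of limma's fit to these 8 arrays, and a gene or probe is called where limma's p, adjusted by Benjamini-Hochberg, is below 0.05. Each array had 26041 to 29231 probes well above background, and no probe was saturated. Arrays of a genotype correlated at 0.980 to 0.993 across genes, against 0.966 to 0.979 between genotypes, though genes do not count as replicates. The first principal component, with 46.7% of the variance, separated the genotypes. The second, with 17.5%, separated deficient arrays 9 and 10 and wild-type arrays 2 and 5 from the other 4. The Y-linked genes Ddx3y and Eif2s3y were well above background on those other 4 alone, and Xist, the RNA of the inactive X, was at its higher level on the former 4, so each genotype held 2 arrays of each kind. Those kinds also lay in different array columns of the slide and cannot be told apart from position.

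B cell identity was checked on the marker list, of which all 15 genes were measured. Cd79a, a signalling chain of the B cell receptor, stood at 7.65, 7.68, 7.73 and 7.91 on the deficient arrays and 6.98, 7.45, 7.74 and 7.87 on the wild-type arrays (difference 0.24, adjusted p 0.394). Of the 15 markers 2 fell, Ms4a1 by 0.36 (adjusted p 0.0276) and Ly86 by 0.40 (adjusted p 0.0279), and none rose (8.95% and 5.86% over all 19187 genes; 4 and 1 at an unadjusted p under 0.05). Both calls were lost without deficient array 9 or without wild-type array 5, 6 or 8, Ly86 also without deficient array 12 and Ms4a1 without deficient array 10 or 11 (adjusted p 0.0515 to 0.0728 for Ms4a1 and 0.06 to 0.074 for Ly86). The summed level of the markers ran from 10.696 to 10.87 on deficient and from 10.62 to 10.98 on wild-type arrays.

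Constant genes of switched antibody classes carried some of the largest differences of the comparison. Probes are 60 bases long and their positions follow mm9. The probes below are shown because each measures a heavy chain constant gene that fell. Each reads open over its whole length in at least 1 frame, and capitals mark a stop codon that closes that frame at the last base. By the order of genes in RefSeq, the alpha constant gene lies between Tmem121 and the epsilon gene, and the pair described as J558 family mRNA sits there, at chr12:114496985-114497044 and chr12:114497090-114497149.
J558 mRNA, probe 1: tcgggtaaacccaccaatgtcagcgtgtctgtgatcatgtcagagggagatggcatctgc
J558 mRNA, probe 2: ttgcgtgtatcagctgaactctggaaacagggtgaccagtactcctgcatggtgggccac
epsilon: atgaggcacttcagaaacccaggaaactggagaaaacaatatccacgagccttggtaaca
gamma 2C: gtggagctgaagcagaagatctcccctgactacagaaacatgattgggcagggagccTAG
cDNA beside IgG2a: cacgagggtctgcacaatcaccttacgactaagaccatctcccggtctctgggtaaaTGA
gamma 2B: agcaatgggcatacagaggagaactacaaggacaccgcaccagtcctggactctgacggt
gamma 1, probe 1: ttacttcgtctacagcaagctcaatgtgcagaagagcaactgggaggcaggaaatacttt
gamma 1, probe 2: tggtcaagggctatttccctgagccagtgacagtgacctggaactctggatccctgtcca
gamma 3: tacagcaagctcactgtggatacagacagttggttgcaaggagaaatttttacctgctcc

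Of the 13 array probes between Tmem121 and the delta gene, 12 were measured, and 11 of them fell and none rose, against 8.13% of all 26984 probes tested that fell and 5.88% that rose. At an unadjusted p under 0.05 the counts were the same, 11 and 0. Their median difference was -4.69, beside -0.08 over all genes. On all 11 the groups did not overlap, which also held for 1689 of the 1717 genes that fell across the genome. Gamma 3 (chr12:114597942-114598001), the constant gene nearest the delta gene, stood at -1.82, -1.30, -2.52 and -1.97 on the deficient arrays and 4.43, 4.32, 4.22 and 3.91 on the wild-type arrays. It fell by 6.12 (SE 0.24, adjusted p 1.87e-05), and its wild-type arrays, with an SD of 0.23, lay closer together than those of any other measured switched-class probe. The first gamma 1 probe (chr12:114567263-114567322) stood at -3.20, -3.64, -3.40 and -6.17 on the deficient arrays and 3.84, 4.11, 4.94 and 3.22 on the wild-type arrays, and fell by 8.13 (SE 0.67, adjusted p 0.000477). It was well above background on 3 of 4 deficient arrays, and array 12 lay below the other 3. The second gamma 1 probe fell by 6.63 (SE 0.64, adjusted p 0.00106) and was well above background on all arrays.

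Wild-type array 5 was the brightest for the epsilon, gamma 2C, IgG2a and gamma 2B probes, the cDNA beside IgG2a and the second gamma 1 probe. Gamma 2B (chr12:114544738-114544797) stood at 2.06, 1.04, 2.42 and 1.72 on the deficient arrays and 5.91, 8.14, 5.36 and 5.00 on the wild-type arrays and fell by 4.29 (SE 0.65, adjusted p 0.00783). The cDNA beside IgG2a fell by 6.67 (adjusted p 0.000585), the IgG2a probe itself by 5.08 (adjusted p 0.00158) and gamma 2C by 4.30 (adjusted p 0.00258). Epsilon, the heavy chain of IgE, stood at -6.69, -6.36, -6.32 and -6.14 on the deficient arrays and -0.89, -0.03, -0.72 and -2.28 on the wild-type arrays. It was not well above background on any deficient array and was at least 11.3-fold lower there (adjusted p 0.000383), a bound set by each array's dimmest probe that still stood well above background.

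The alpha position behaved differently among the wild-type arrays. The first J558 probe stood at 6.72, 5.75, 6.18 and 6.03 on the deficient arrays and 9.52, 9.82, 7.67 and 8.17 on the wild-type arrays, and the second at 5.46, 4.41, 4.88 and 4.73 on the deficient arrays and 8.96, 9.18, 6.29 and 6.93 on the wild-type arrays. Wild-type arrays 2 and 5 lay above arrays 6 and 8 on both, and the same held for the heavy chain complex probe beside them, at 1.80, 0.63, 1.03 and 1.01 on the deficient arrays and 6.46, 6.30, 2.69 and 3.12 on the wild-type arrays. The first pair fell by 2.62 (SE 0.48, adjusted p 0.0144) and 2.97 (SE 0.65, adjusted p 0.0243) and the third probe by 3.53 (SE 0.89, adjusted p 0.0363). The third call was lost without any 1 of the deficient arrays or without wild-type array 2 or 5 (adjusted p 0.0664 to 0.08), and that of the second J558 probe without deficient array 10 (0.057) or 12 (0.0547) or wild-type array 2 (0.0518). The 12th measured probe has no description and differed by -0.41 (adjusted p 0.18).

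Upstream of gamma 3 the differences were smaller. Mu, the IgM heavy chain, stood at 7.30, 8.30, 7.06 and 7.47 on the deficient arrays and 7.89, 7.91, 8.15 and 8.33 on the wild-type arrays, so that deficient array 10 lay among the wild-type arrays. The hydrophobic frame probe between the delta and mu probes differed by -0.47 (adjusted p 0.37). The mu difference of -0.54 (SE 0.26) did not pass (adjusted p 0.178). Without deficient array 10 it was -0.79 and passed (adjusted p 0.0269). The cDNA probe at the delta position fell by 1.53 (SE 0.14, adjusted p 0.000721) with groups that did not overlap, from 5.07 to 5.58 on deficient and 6.67 to 7.04 on wild-type arrays. The constant genes of the light chains, on other chromosomes, did not pass on any of 4 probes, with differences from -0.09 to 0.15 and no probe at an unadjusted p under 0.05.

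**Figure D1:**
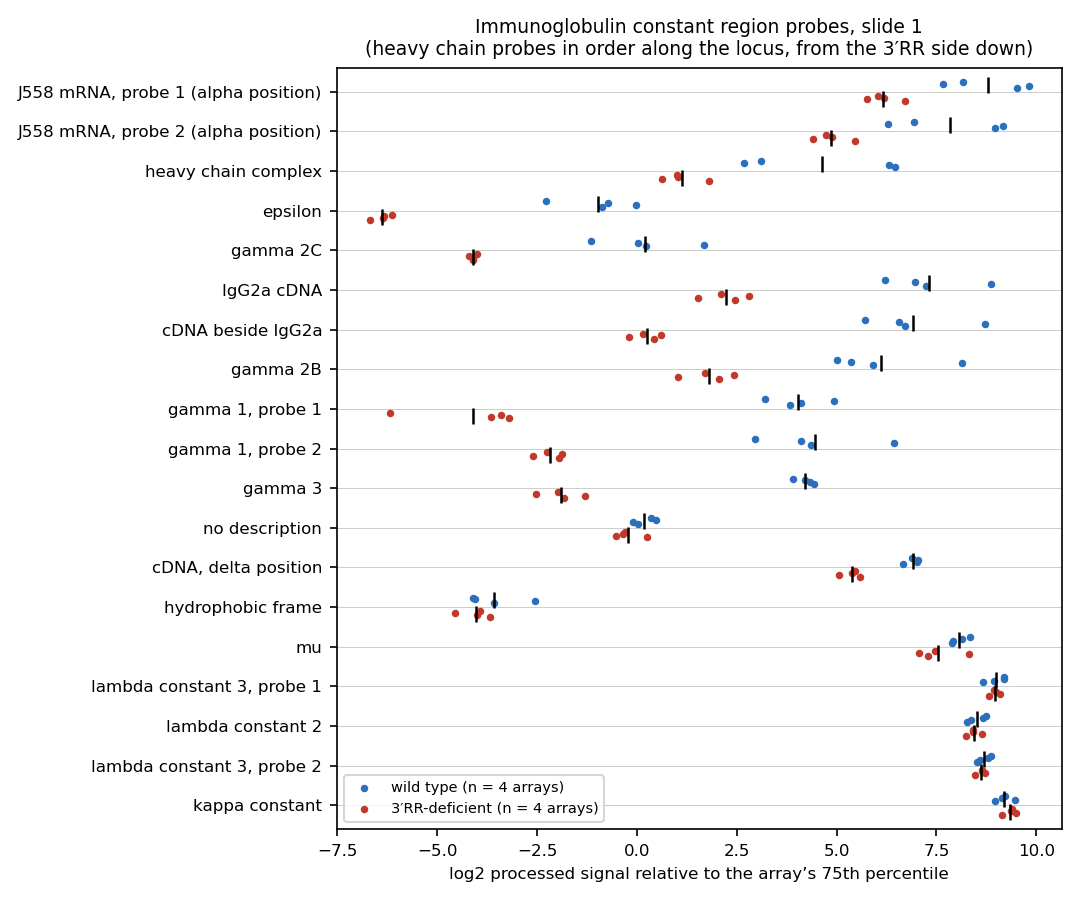
Signals of 15 heavy chain and 4 light chain constant region probes on the 8 arrays of slide 1 (log2 relative to the array's 75th percentile; dots are arrays, black ticks group means of 4). From the J558 probes to gamma 3 all deficient arrays lie left of all wild-type arrays, while mu overlaps and the light chain probes coincide.

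Heavy chain variable segments were lower in deficient cells, while most kappa variable segments had positive differences of which few passed. Of 133 probes on the locus strand among the heavy chain variable segments (chr12, 114816899 to 117247905 from the first to the last measured), 92 were measured, and 77 fell and none rose (8.13% and 5.88% of all probes; 86 and 1 at an unadjusted p under 0.05). The median difference was -1.63, from -3.09 to 0.81. Relative to each probe's mean over the 8 arrays, the median over probes was -0.89, -0.06, -1.43 and -0.96 on the deficient and 0.95, 1.22, 0.54 and 0.53 on the wild-type arrays, so that deficient array 10 lay nearest the wild type. The count of 77 was 42 without deficient array 9, 46 without deficient array 12 and 50 without wild-type array 5, and 83 without deficient array 10.

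All 86 probes described as kappa variable segments (chromosome 6) were measured, and were looked at after the heavy chain values had been seen. Of these, 84 had a positive difference, with a median of 0.80. At the adjusted threshold 6 rose and none fell, against 5.88% and 8.13% of all probes, so the count that rose was near that share. At an unadjusted p under 0.05 the counts were 48 and none. Their median relative to the probe mean was -0.12, 1.24, -0.11 and 0.50 on the deficient arrays and -0.78, -0.13, -0.49 and -0.31 on the wild-type arrays. Deficient array 10 stood highest, and without it the median difference was 0.55. Segments of a family share sequence, so probes can report each other's transcripts.

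**Figure D2:**
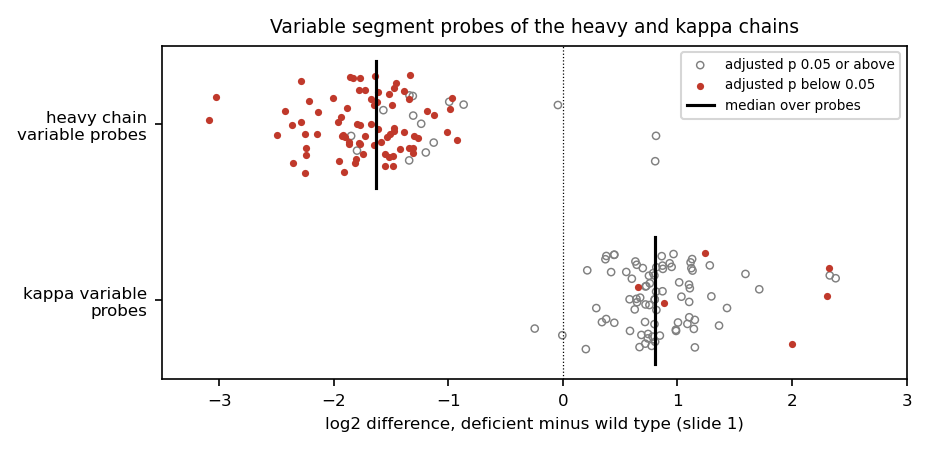
Log2 difference (deficient minus wild type, slide 1) of each measured heavy chain variable probe (92) and kappa variable probe (86). Filled dots passed limma's test at an adjusted p below 0.05, open dots did not, and bars mark medians of -1.63 and 0.80; vertical scatter is only for display.

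Across the genome, 1125 of 19187 genes (5.86%) rose and 1717 (8.95%) fell in deficient cells, 14.8% in all. Of these, 456 and 259 differed at least 2-fold and 125 and 53 at least 4-fold, so large differences were more often increases. The share of increases among all calls was 39.6%, and it was 50.5% with each array scaled to its median, 50.02% after quantile normalization and 51.2% in the authors' deposited table. Leaving out 1 array gave between 585 and 993 increases and between 646 and 1118 decreases. The count of increases moved by over 1.5 times without deficient array 9 (609) or 10 (721) or wild-type array 6 (585) or 8 (589), and that of decreases without any 1 array.

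The heavy chain locus made chromosome 12 stand out. There, 23.3% of 807 genes were called, 34 higher and 154 lower, and all 82 of its genes that fell at least 2-fold lie within the locus. Outside it, 14.6% of 705 genes on chromosome 12 were called, 34 higher and 69 lower. The other autosomes and the X ran from 10.9% (chromosome 14) to 16.6% (chromosome 4). Chromosome 15, with the Ly6 cluster and Sema5a, had the highest share of increases among the autosomes, 9.65%.

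**Figure D3:**
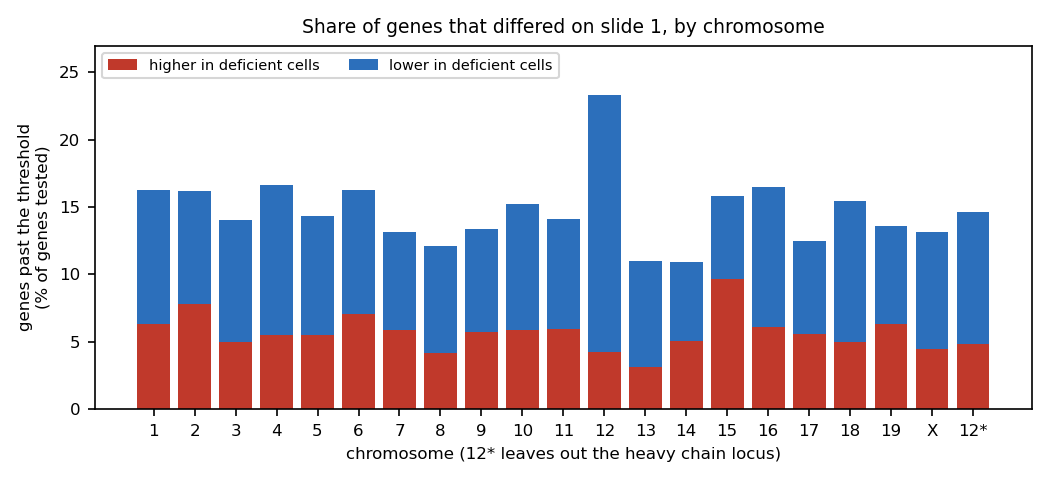
Percent of tested genes that rose (red) or fell (blue) in deficient cells on slide 1, by chromosome, with chromosome 12 also shown without the heavy chain locus (12*). Chromosome 12 reaches 23.3% with the locus and 14.6% without it.

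The named genes with the largest increase outside the locus were mostly near or below background in wild-type cells. Oasl2 (chr5:115362168-115362227), an interferon-induced relative of the oligoadenylate synthetases, stood at 0.52, 1.73, 1.81 and 1.23 on the deficient arrays and -6.55, -4.23, -6.45 and -6.61 on the wild-type arrays. It was not well above background on any wild-type array and was at least 49.8-fold higher in deficient cells (adjusted p 0.000439). Sema5a (chr15:32626025-32626084), a membrane semaphorin known from axon guidance, stood at 0.36, 1.14, 0.67 and -0.36 on the deficient arrays and -6.78, -6.43, -6.34 and -6.51 on the wild-type arrays and was at least 30.5-fold higher (adjusted p 3.04e-05). Pou6f1, which encodes a transcription factor with a POU domain, showed little spread, at 1.99, 1.66, 2.15 and 2.08 on the deficient arrays and -2.65, -3.04, -3.07 and -2.77 on the wild-type arrays, and rose by 4.86 (SE 0.14, adjusted p 4.03e-06).

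Other increases concerned genes of varied kinds. Pydc4, a pyrin domain gene next to the HIN-200 family, stood at 2.30, 2.49, 3.27 and 2.82 on the deficient arrays and -1.85, -2.72, -3.07 and -2.60 on the wild-type arrays and rose by 5.28 (SE 0.29, adjusted p 0.000119). Mnda, the array's name for a HIN-200 gene, rose by 3.91 (SE 0.23, adjusted p 0.000144). Camk2b, a subunit of the calcium/calmodulin-dependent kinase II, was at least 11.8-fold higher (adjusted p 0.000375) and Car9, a carbonic anhydrase, at least 5.53-fold (adjusted p 0.000382). Tcstv3, a gene of the early embryo, was at least 16.8-fold higher (adjusted p 0.000213), Klri2, a killer lectin-like receptor, at least 11.1-fold (adjusted p 0.00171) and Col5a3, a collagen chain, at least 10.66-fold (adjusted p 0.00115). None of these 5 was well above background on a wild-type array.

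Ccl8, a monocyte-attracting chemokine, stood at -2.05, 1.54, -3.72 and -2.32 on the deficient arrays and -5.93, -5.40, -5.51 and -6.32 on the wild-type arrays, with deficient array 10 far above the others, and was at least 7.17-fold higher (adjusted p 0.0295). Its call was lost without deficient array 9 or 12 or any 1 wild-type array (adjusted p 0.0527 to 0.0724). Gstt1, a glutathione transferase, rose by 3.83 (adjusted p 0.0187) and ranged from -0.03 to 3.90 among deficient arrays. Dnm3, a dynamin, was at least 4.96-fold higher (adjusted p 0.00383) and Spon1, an extracellular matrix protein, at least 4.79-fold (adjusted p 0.00964). Fam101a, whose product acts on the actin cytoskeleton, rose by 3.93 (adjusted p 0.0242) and among wild-type arrays 1 of 4 was well above background. The call of Gstt1 was lost without deficient array 9 or wild-type array 8 (adjusted p 0.0514 and 0.0509), and that of Fam101a without deficient array 9 or wild-type array 2, 6 or 8 (0.0511 to 0.0617).

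Among the named genes with the largest decrease, Itln1 (chr1:173448282-173448341), a lectin that binds microbial sugars, stood at -6.47, -4.94, -5.75 and -6.27 on the deficient arrays and 1.17, 0.45, 0.85 and 0.74 on the wild-type arrays. It was not well above background on any deficient array and was at least 38.7-fold lower there (adjusted p 6e-05). Ifi202b, a HIN-200 gene long studied in autoimmune mouse strains, stood at -5.48, -6.66, -5.98 and -6.40 on the deficient arrays and -0.57, -1.52, -0.07 and -0.31 on the wild-type arrays and was at least 14.5-fold lower (adjusted p 0.000213). Vsig8, a membrane protein with immunoglobulin domains, was at least 5.23-fold lower (adjusted p 0.000789). In each of these 3 the wild-type arrays lay far from the deficient arrays. The wild-type arrays lay close together for Itln1 and Vsig8, with an SD of 0.30 in each, and were wider spread for Ifi202b, with an SD of 0.63.

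Klra17, a killer lectin-like receptor, stood at -1.36, -3.64, -2.37 and -2.54 on the deficient arrays and 0.81, 0.21, 0.40 and 0.33 on the wild-type arrays and fell by 2.91 (SE 0.42, adjusted p 0.00672). Rnd3, a small GTPase that loosens actin fibres, stood at -0.86, -2.005, -1.78 and -2.46 on the deficient arrays and 1.39, 0.40, 0.93 and 0.80 on the wild-type arrays and fell by 2.66 (SE 0.34, adjusted p 0.00411). Cd209d and Cd209f, relatives of the dendritic cell lectin DC-SIGN, fell by 2.23 (adjusted p 0.0262) and 3.48 (adjusted p 0.0077). Rab4a, a GTPase of endosome recycling, fell by 3.58 (adjusted p 0.0112), Olfr433, an olfactory receptor gene, by 3.65 (adjusted p 0.0011) and Arhgef16, a guanine nucleotide exchange factor, by 4.10 (adjusted p 0.0122).

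The other 5 were Rgs18, a regulator of G-protein signalling (fell by 3.71, adjusted p 0.0474), Mmel1, a membrane peptidase (2.90, 0.0201), Drd5, a dopamine receptor (2.76, 0.0254), Fam13c (2.68, 0.026) and Lrrn4, a leucine-rich repeat protein (2.32, 0.0274). Deficient arrays were often dim for Rgs18, Arhgef16, Olfr433 and Cd209f (2 of 4 well above background) and for Rab4a, Mmel1, Drd5 and Lrrn4 (1 of 4). For the last 4 the difference nearest to no change under the alternatives run was -1.25, -0.97, -1.12 and -0.96, so their sizes depend on the processing. The folds given above as lower bounds hold for the main processing alone. Under the alternatives the log2 difference nearest to no change was 4.37 for Oasl2, 2.18 for Camk2b, 1.54 for Car9 and 1.36 for Dnm3. It was -3.78 for Itln1 and -1.40 for Vsig8, and all of these are smaller than the bounds. Calls among the decreases were lost for Cd209d without deficient array 12 or wild-type array 2, 6 or 8 (adjusted p 0.055 to 0.0626), for Rgs18 without deficient array 9 or 10 or any 1 wild-type array (0.0669 to 0.103) and for Mmel1 without deficient array 9 or wild-type array 8 (0.0509 to 0.0536). They were lost for Drd5 without deficient array 9 or 12 or wild-type array 2, 6 or 8 (0.0521 to 0.0647), for Fam13c without deficient array 11 or any 1 wild-type array (0.0503 to 0.0565) and for Lrrn4 without deficient array 11 or wild-type array 2, 6 or 8 (0.0503 to 0.0684).

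**Figure D4:**
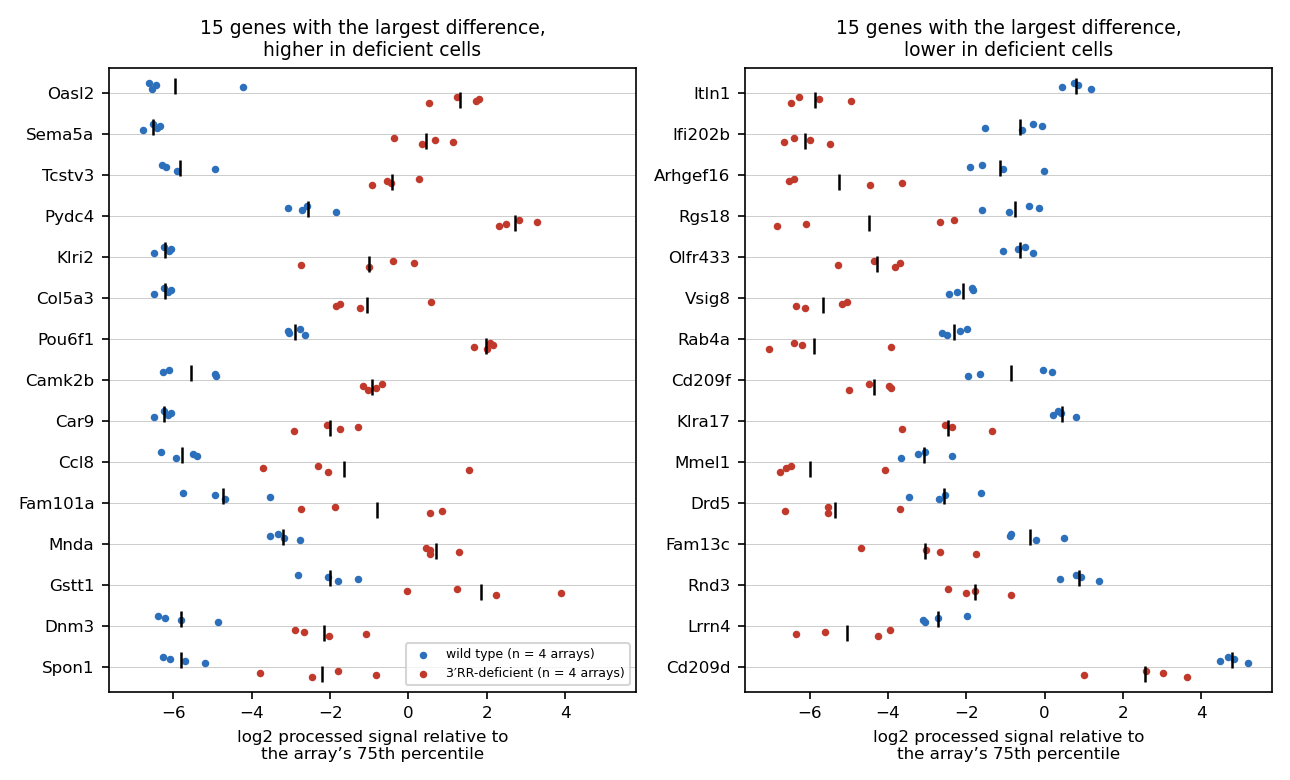
Signals of the 15 genes with the largest increase and the 15 with the largest decrease outside the heavy chain locus on the 8 arrays of slide 1 (log2 relative to the array's 75th percentile; dots are arrays, black ticks group means of 4). Groups do not overlap for any of the 30, as the choice of genes required, and many lie near the detection floor in 1 genotype. Genes named only by a clone, a number, an accession or coordinates were passed over, and a larger difference, of 7.64, lay outside the choice.

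Interferon-stimulated genes rose as a group. Type I interferon signals from a surface receptor to transcription factors that induce antiviral genes. The list has 54 measured genes, of which 39 rose and 0 fell in limma's test (5.86% and 8.95% over all genes; 45 and 0 at an unadjusted p under 0.05), with a median difference of 1.05 beside -0.08. Relative to each gene's mean, the median over members was 0.21, 0.35, 0.58 and 0.61 on the deficient and -0.42, -0.53, -0.58 and -0.33 on the wild-type arrays. Zbp1, a sensor of viral and cellular nucleic acids, stood at 2.03, 2.42, 2.45 and 2.48 on the deficient arrays and 0.84, 1.07, 0.77 and 0.99 on the wild-type arrays and rose by 1.43 (SE 0.13, adjusted p 0.000789). Lgals3bp, a secreted glycoprotein that binds galectin 3, stood at 4.17, 4.50, 4.68 and 4.32 on the deficient arrays and 2.54, 2.26, 2.66 and 2.97 on the wild-type arrays and rose by 1.81 (SE 0.17, adjusted p 0.00105). Ly6a, the Sca-1 surface antigen, stood at 6.56, 6.97, 6.52 and 6.62 on the deficient arrays and 5.26, 5.33, 4.94 and 5.36 on the wild-type arrays and rose by 1.44 (SE 0.14, adjusted p 0.00115). The groups did not overlap in any of the 3.

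Larger increases were found in synthetases of the 2-5A pathway, which activates an RNA-degrading enzyme. Oas2 stood at 3.32, 3.57, 4.70 and 4.39 on the deficient arrays and 1.63, 0.87, -0.51 and 0.71 on the wild-type arrays, rising by 3.32 (SE 0.48, adjusted p 0.0065), and Oas3 rose by 3.18 (adjusted p 0.00441). In both, deficient arrays 11 and 12 lay above 9 and 10, and wild-type array 6 lay lowest. Usp18, a protease that removes ISG15 and damps interferon signalling, rose by 2.56 (adjusted p 0.00445) and Irgm1, an immunity-related GTPase, by 1.04 (adjusted p 0.00267). Stat2, a transcription factor of the pathway, differed by 0.25 (adjusted p 0.091). Irf7, the factor that amplifies interferon production, rose by 1.30 (adjusted p 0.0244), and Isg15, a ubiquitin-like modifier, by 0.80 (adjusted p 0.0352). The Irf7 call was lost without deficient array 12 or wild-type array 5, 6 or 8 (adjusted p 0.0526 to 0.0626), and that of Isg15 without any 1 array other than deficient array 9 (0.0532 to 0.0838). The count of 39 was 25 without wild-type array 5 and 24 without wild-type array 6, and 18 with no filter on dim probes.

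Promoters of 3 members that rose are shown because they hold the interferon-stimulated response element. It was searched as TTTCNNTTTC on both strands, with overlapping matches joined, and is in capitals. The windows are RefSeq sequences of assembly GRCm38.p6, with strands as given, and 300 bases long.
Isg15 (chr4:156200769-156201068, minus strand): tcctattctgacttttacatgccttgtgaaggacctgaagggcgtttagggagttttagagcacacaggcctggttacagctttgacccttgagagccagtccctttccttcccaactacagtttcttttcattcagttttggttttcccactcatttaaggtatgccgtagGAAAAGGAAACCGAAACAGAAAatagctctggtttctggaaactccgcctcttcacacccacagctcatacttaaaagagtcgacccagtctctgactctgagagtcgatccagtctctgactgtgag
Irgm1 (chr11:48871371-48871670, minus strand): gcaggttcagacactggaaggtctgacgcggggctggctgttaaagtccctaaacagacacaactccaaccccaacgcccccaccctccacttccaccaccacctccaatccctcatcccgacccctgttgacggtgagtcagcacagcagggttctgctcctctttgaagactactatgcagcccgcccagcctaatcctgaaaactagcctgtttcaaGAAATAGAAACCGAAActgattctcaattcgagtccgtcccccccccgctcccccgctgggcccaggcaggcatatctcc
Oas3 (chr5:120777610-120777909, minus strand): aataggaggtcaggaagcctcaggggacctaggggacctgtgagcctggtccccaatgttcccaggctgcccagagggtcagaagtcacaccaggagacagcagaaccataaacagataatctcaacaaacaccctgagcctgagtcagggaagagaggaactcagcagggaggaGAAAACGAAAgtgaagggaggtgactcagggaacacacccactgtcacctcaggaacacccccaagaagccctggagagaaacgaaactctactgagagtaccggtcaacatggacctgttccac
Isg15 holds 3 matches, of which the first begins 78 bases before the start, Irgm1 has 2 and Oas3 has 1. Of the 38 measured members matched to the promoter table, 18 hold the element (47.4%), beside 3.99% of all 27025 genes there. A match is a description of letters and not a binding site.

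Genes of the HIN-200 family and its pyrin neighbours, a cluster of interferon-inducible DNA-binding proteins on chromosome 1, went in both directions. Of 9 measured, 4 rose and 2 fell (5.86% and 8.95% over all genes). Beside Pydc4, Mnda and Ifi202b, Pydc3 stood at 5.13, 5.10, 5.93 and 5.71 on the deficient arrays and 3.14, 2.87, 2.81 and 2.85 on the wild-type arrays and rose by 2.55 (SE 0.20, adjusted p 0.000467). Aim2, the sensor of cytosolic DNA that starts an inflammasome, stood at 0.07, -0.21, 0.12 and -0.12 on the deficient arrays and 1.84, 1.67, 1.53 and 1.24 on the wild-type arrays and fell by 1.60 (SE 0.14, adjusted p 0.000789). Members are close in sequence, so a probe can report a neighbour or miss a strain's allele, which was not tested.

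Genes of antigen presentation by MHC class I were higher. This pathway displays peptides cut by the proteasome and pumped into the endoplasmic reticulum. Of 25 measured genes 11 rose and none fell (5.86% and 8.95% over all genes; 13 and 0 at an unadjusted p under 0.05), with a median of 0.24. H2-K1, a classical class I heavy chain, stood at 8.66, 8.91, 8.71 and 8.76 on the deficient arrays and 8.16, 8.44, 8.21 and 8.28 on the wild-type arrays and rose by 0.49 (SE 0.10, adjusted p 0.0176). Nlrc5, the transactivator of the class I genes, rose by 1.24 (adjusted p 0.0113), and Tap1, a chain of the peptide pump, by 0.75 (adjusted p 0.0167). The nonclassical H2-T9, H2-T10 and H2-Q7 rose by 1.24 (adjusted p 0.000684), 0.90 (adjusted p 0.00754) and 0.72 (adjusted p 0.0121). Class I genes are near-identical copies and differ between strains, so the member behind a probe is uncertain. The count was 7 without wild-type array 6 or 8. Of 17 measured class II genes, 4 fell and none rose (8.95% and 5.86% over all genes; 4 and 1 unadjusted), with a median of -0.17, and the count was 1 or 2 without any 1 array other than wild-type array 2.

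Immediate early genes, which B cells switch on minutes after a stimulus, were in part lower in deficient cells. Of 29 measured members 7 fell and none rose (8.95% and 5.86% over all genes), 18 and none at an unadjusted p under 0.05, with a median of -0.63. The median over members relative to each gene's mean was -0.32, -0.44, -0.38 and -0.22 on the deficient and 0.57, 0.46, -0.05 and 0.12 on the wild-type arrays, so wild-type arrays 2 and 5 lay above 6 and 8. Klf6, a zinc finger factor, stood at 4.43, 4.39, 4.38 and 4.40 on the deficient arrays and 6.43, 6.496, 5.08 and 5.38 on the wild-type arrays, and fell by 1.45 (SE 0.32, adjusted p 0.0245). Nr4a1, an orphan nuclear receptor that reports antigen receptor signalling, stood at 4.36, 4.15, 4.55 and 4.51 on the deficient arrays and 6.23, 5.55, 5.47 and 5.15 on the wild-type arrays, and fell by 1.21 (SE 0.22, adjusted p 0.0141). Junb, an AP-1 subunit, fell by 0.82 (adjusted p 0.0168) and Ier5 by 0.64 (adjusted p 0.0121).

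Fos, the partner of Jun proteins in AP-1, stood at 2.99, 3.56, 3.22 and 3.78 on the deficient arrays and 5.36, 5.61, 3.57 and 4.21 on the wild-type arrays. Its difference of -1.30 did not pass (adjusted p 0.0806), nor did that of Egr1, -0.79 (adjusted p 0.0735). The Klf6 call was lost without deficient array 9, 10 or 12 or wild-type array 2 (adjusted p 0.0501 to 0.0589), and that of Junb with the array column as a block (0.0553). The count of 7 was 3 without deficient array 9 or 10 or wild-type array 2, and 4 without wild-type array 5. It was 18 when all 16 arrays shared 1 estimate of the spread.

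Of 13 MAP kinase phosphatase and related genes, which give feedback on the same signals, 3 fell and 1 rose (8.95% and 5.86% over all genes). Dusp1, which switches off stress kinases, stood at 2.05, 1.65, 2.13 and 2.39 on the deficient arrays and 4.50, 4.24, 3.05 and 3.28 on the wild-type arrays and fell by 1.71 (SE 0.34, adjusted p 0.0178). Dusp6, which acts on ERK, stood at 4.23, 4.05, 4.04 and 4.34 on the deficient arrays and 4.97, 4.96, 5.16 and 4.97 on the wild-type arrays and fell by 0.85 (SE 0.10, adjusted p 0.0029). Dusp2 fell by 0.54 (adjusted p 0.0359), a call lost without deficient array 9 or 10 or any 1 wild-type array (0.0576 to 0.087), and Dusp14 rose by 1.34 (adjusted p 0.0121).

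Of 22 genes of NF-kappaB and its feedback 2 fell and none rose (7 and 2 at an unadjusted p under 0.05), a share near the 8.95% of all genes that fell. Both encode inhibitors, Tnip1 with a decrease of 0.61 (SE 0.10, adjusted p 0.00956) and Tnfaip3, the deubiquitinase A20, with 0.93 (SE 0.20, adjusted p 0.023). Nfkbid and Bcl3, nuclear inhibitor-like proteins, differed by -0.50 and 0.39 (adjusted p 0.0754 and 0.0842). Of 22 surface activation genes 3 fell and none rose (9 and 2 unadjusted), also near that share. Cd200, an inhibitory ligand, stood at 2.59, 1.99, 2.17 and 2.36 on the deficient arrays and 3.35, 3.26, 3.42 and 3.39 on the wild-type arrays and fell by 1.08 (adjusted p 0.00347). Cd40, the receptor for T cell help, stood at 3.77, 4.33, 3.89 and 4.20 on the deficient arrays and 4.65, 4.73, 4.96 and 5.01 on the wild-type arrays and fell by 0.79 (adjusted p 0.0163), and Gpr183, which guides B cells to the follicle border, fell by 0.70 (adjusted p 0.0169). Cd69, the early activation antigen, differed by -1.21 (adjusted p 0.0572). The Tnfaip3 call was lost without deficient array 9 or 12 (adjusted p 0.0536 and 0.0523).

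Chaperones of the heat shock response were in part lower, with differences from -3.11 to -0.0018. Of 22 measured genes 7 fell and none rose (8.95% and 5.86% over all genes; 12 and 0 at an unadjusted p under 0.05), no member had a positive difference, and the median was -0.32. All 49 ribosomal and all 49 oxidative phosphorylation genes were negative too, with medians of -0.20 and -0.21, and of these 2 and 4 fell. Dnajb1, an Hsp40 cochaperone, stood at 4.67, 4.72, 4.84 and 4.70 on the deficient arrays and 5.11, 5.35, 5.42 and 5.59 on the wild-type arrays and fell by 0.64 (SE 0.11, adjusted p 0.0129). Hsp90aa1, the inducible Hsp90, stood at 4.96, 5.12, 4.67 and 5.02 on the deficient arrays and 5.58, 5.84, 5.43 and 5.56 on the wild-type arrays and fell by 0.66 (SE 0.13, adjusted p 0.0175). Dnaja1 fell by 0.58 (adjusted p 0.0168) and Hspd1, the mitochondrial Hsp60, by 0.43 (adjusted p 0.0314). Hspe1, the Hsp10 partner of Hspd1, differed by -0.34 (adjusted p 0.116). The Hspd1 call was lost without deficient array 9, 11 or 12 or wild-type array 5, 6 or 8 (adjusted p 0.0625 to 0.081). The count of 7 was 3 without deficient array 9, 11 or 12 or wild-type array 5 or 8, 4 without deficient array 10 or wild-type array 6, and it was 4 by the authors' deposited values.

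Hspd1 and Hspe1 lie head to head, and the shared stretch is shown because it holds the heat shock element, searched as GAANNTTCNNGAA on both strands and in capitals.
Hspe1 (chr1:55087898-55088197, plus strand): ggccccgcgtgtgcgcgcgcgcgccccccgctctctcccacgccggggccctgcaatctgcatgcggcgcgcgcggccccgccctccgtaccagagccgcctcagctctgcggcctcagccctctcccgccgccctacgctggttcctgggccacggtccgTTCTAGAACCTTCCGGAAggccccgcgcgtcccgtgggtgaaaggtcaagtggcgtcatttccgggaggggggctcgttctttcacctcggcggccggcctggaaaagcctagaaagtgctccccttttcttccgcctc
The window has 2 overlapping matches, beginning 89 and 84 bases before the Hspe1 start. Of 17 measured members matched to RefSeq promoters, 4 hold the element (23.5%), beside 0.662% of all genes there. The cyclic AMP response element, TGACGTCA, is in 2 of 23 matched promoters of the immediate early list (8.70%), beside 2.03% of all genes.

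Genes of B cell subsets and of antibody-secreting cells moved unevenly. Plasma cells secrete antibody, and of 17 measured plasma cell genes 5 rose and none fell (5.86% and 8.95% over all genes; 11 and 2 at an unadjusted p under 0.05), with a median of 0.54. The median relative to each gene's mean was 0.14, 0.94, -0.08 and 0.26 on the deficient and -0.26, -0.21, -0.34 and -0.49 on the wild-type arrays, so deficient array 10 stood highest. Tnfrsf17, the plasma cell survival receptor BCMA, stood at 0.28, 1.24, 0.09 and 0.63 on the deficient arrays and -1.10, -0.97, -1.85 and -2.02 on the wild-type arrays and rose by 2.05 (SE 0.32, adjusted p 0.00913). Cd28, a costimulatory receptor also found on plasma cells, rose by 0.85 (adjusted p 0.0177), Eaf2, an elongation cofactor, by 1.43 (adjusted p 0.0221) and Creb3l2, a secretory pathway factor, by 1.51 (adjusted p 0.0247). Prdm1 and Xbp1, the factors that direct plasma cell fate and secretion, differed by 0.42 and 0.54 (adjusted p 0.443 and 0.128). The count of 5 was 2 without deficient array 9 or wild-type array 2, 6 or 8, 3 without deficient array 10 and 8 without deficient array 11. The Eaf2 call was lost without deficient array 9 or 10 or wild-type array 2, 6 or 8 (adjusted p 0.0511 to 0.0573), that of Creb3l2 without deficient array 9 or wild-type array 2, 6 or 8 (0.0515 to 0.0631) and that of Cd28 with the array column as a block (0.0514).

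B-1 cells are innate-like B cells that secrete natural antibody. Of 17 measured genes 6 rose and 2 fell (5.86% and 8.95% over all genes), with a median of 0.47. Bhlhe41, a repressor required by B-1a cells, stood at -0.91, -0.41, -1.21 and -0.85 on the deficient arrays and -2.18, -2.61, -2.27 and -2.40 on the wild-type arrays and rose by 1.52 (SE 0.17, adjusted p 0.00267). Zbtb32, a repressor of memory B cell recall, rose by 1.84 (adjusted p 0.00834) and Spn, the CD43 antigen that marks B-1 cells, by 0.97 (adjusted p 0.00774). Tbx21, the factor T-bet, rose by 1.55 (adjusted p 0.017), while Zcwpw1, a histone reader, fell by 0.73 (adjusted p 0.0126). Cd5, the antigen that defines B-1a cells, differed by -0.55 (adjusted p 0.0583).

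Marginal zone B cells respond to blood-borne antigen. Of 22 measured genes 7 fell and 2 rose (8.95% and 5.86% over all genes), with a median of -0.34. Hes1, a target of the Notch signal these cells need, stood at -1.32, -1.42, -0.82 and -1.19 on the deficient arrays and 0.14, -0.14, -0.13 and -0.25 on the wild-type arrays and fell by 1.09 (SE 0.15, adjusted p 0.00502). Cd36, a scavenger receptor, stood at 0.20, -0.00, 0.49 and 0.20 on the deficient arrays and 1.36, 0.96, 1.99 and 1.89 on the wild-type arrays and fell by 1.33 (SE 0.23, adjusted p 0.0128). Cd9, a tetraspanin, fell by 0.76 (adjusted p 0.0199), a call lost without deficient array 9 or wild-type array 6 or 8 (0.0515 to 0.0542) and with the array column as a block (0.0572), and Tm6sf1 by 0.52 (adjusted p 0.0113). The count of 7 was 3 without deficient array 9 or wild-type array 6 or 8, and 4 without deficient array 10 or 12 or wild-type array 2 or 5.

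All 28 measured mitosis genes had a positive difference, with a median of 0.76, but 2 passed, near the 5.86% of all genes that rose, and 16 had an unadjusted p under 0.05. Nusap1, a spindle protein, stood at 1.41, 1.998, 0.98 and 1.69 on the deficient arrays and -0.33, 0.59, 0.72 and 0.06 on the wild-type arrays and rose by 1.26 (adjusted p 0.0267), and Bub1b, a checkpoint kinase, rose by 1.04 (adjusted p 0.0352). Ccnb1, Ube2c and Mki67 differed by 0.86, 1.00 and 1.06 (adjusted p 0.0504, 0.0569 and 0.0826). Mki67 stood at 5.23, 5.69, 4.06 and 5.51 on the deficient arrays and 3.69, 4.34, 4.48 and 3.73 on the wild-type arrays, so deficient array 11 lay among the wild-type arrays. Both calls were lost without deficient array 9, 10 or 12 or wild-type array 2 or 8, and that of Bub1b also without wild-type array 5 (adjusted p 0.0508 to 0.0681 for Nusap1 and 0.0568 to 0.0849 for Bub1b), and Bub1b also with the array column as a block (0.078). Without deficient array 11 the count was 16, without wild-type array 5 it was 1, and without deficient array 9, 10 or 12 or wild-type array 2 or 8 it was 0.

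Markers of other spleen cells were measured in the same RNA. The 22 macrophage and monocyte markers summed to levels from 8.72 to 9.21 on deficient and 8.01 to 8.68 on wild-type arrays, without overlap. Of these, 4 rose and 1 fell, beside 5.86% and 8.95% over all genes, and 6 and 2 did so at an unadjusted p under 0.05. Their median difference was 0.095, with 13 positive and 9 negative. Apoe, a lipid carrier of macrophages, rose by 1.61 (adjusted p 0.0176), Lyz2, lysozyme, by 1.46 (adjusted p 0.0295), Ly6c1 by 1.11 (adjusted p 0.00157) and Cybb, an oxidase subunit, by 0.36 (adjusted p 0.0331), and Ccr2, a monocyte chemokine receptor, fell by 1.72 (adjusted p 0.0436). Of 15 platelet markers on the array 6 were measured. Ppbp, Itga2b, Gp1ba, Gp1bb, Gp5, Gp6, Gp9, F2rl2 and Tubb1 were too dim to be tested. Vwf rose by 1.91 (adjusted p 0.00382) and Itgb3 by 1.07 (adjusted p 0.0264), and none fell, beside 5.86% that rose and 8.95% that fell over all genes. The sum of the 6 ran from 2.57 to 2.77 on deficient and 0.97 to 1.84 on wild-type arrays. Sums overlapped for the 18 T cell markers (5.82 to 5.92 against 5.74 to 5.99), 15 NK cell markers (4.30 to 5.73 against 4.54 to 5.05), 14 neutrophil markers (7.49 to 8.53 against 7.54 to 8.08) and 18 erythroid markers (7.90 to 9.40 against 7.66 to 10.04). They also overlapped for 13 dendritic cell markers (8.78 to 8.86 against 8.84 to 8.97) and 11 stroma and endothelium markers (3.09 to 3.23 against 3.19 to 3.51). Of the dendritic cell markers 1 rose and 2 fell, with differences from -1.54 to 1.56, and of the stroma and endothelium markers 1 rose and none fell (5.86% and 8.95% over all genes). The part of such cells in the interferon, class I and other differences above was not tested. The call of Cybb was lost without any 1 array other than deficient array 11 (adjusted p 0.0504 to 0.0793) and with the array column as a block (0.0533), that of Ccr2 without deficient array 10 or 12 or any 1 wild-type array (0.0628 to 0.0937), that of Lyz2 without any 1 array other than deficient array 12 or wild-type array 6 (0.0516 to 0.0748) and that of Itgb3 without deficient array 9, 10 or 12 or wild-type array 5 or 6 (0.0501 to 0.0609).

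The same probes were read on slide 2, which holds the other 8 arrays of the series, 4 of each genotype with the same strain entries but with the rows exchanged. Wild-type levels of some heavy chain probes differed between the slides. Epsilon ran from 6.41 to 6.75 on the wild-type arrays of slide 2, against -2.28 to -0.03 on slide 1. The delta position ran from 1.23 to 1.79 against 6.67 to 7.04, and the first J558 probe from 2.31 to 2.88 against 7.67 to 9.82. Mu ran from 7.83 to 8.19 against 7.89 to 8.33. Slide 2 is thus not known to repeat the same state of the cells, and why was not tested. The wild-type numbers 2 and 5 are used on each slide, yet Ddx3y exceeded background on all 4 wild-type arrays of slide 2 and not on wild-type arrays 2 and 5 of slide 1. It was so on 2 of the 4 deficient arrays of slide 2, so that set is not balanced as slide 1 is. There, 8.74% of the same 19187 genes rose and 6.97% fell. Of the 1125 genes that rose on slide 1, 252 also rose on slide 2 (22.4% of the slide 1 increases and 15.04% of the slide 2 increases) and 58 fell. Of the 1717 that fell, 278 also fell (16.2% and 20.8%) and 96 rose. The median difference of the slide 1 increases went from 0.85 to 0.14 on slide 2, and that of the decreases from -0.49 to -0.01. The sign was the same on slide 2 for 757 of the 1125 increases and 897 of the 1717 decreases. A smaller value on the second set is usual for genes chosen by a threshold on the first, and its part here was not tested.

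A test of the difference between slides, slide 2 minus slide 1, passed for 3851 genes (20.1%), among them 552 of the slide 1 increases and 1086 of the decreases. Slide 1 values enter both the slide 1 call and this test, so the counts among called genes are not independent of that call. Heat shock genes had a median of -0.32 on slide 1 and 0.13 on slide 2, and the difference passed for 10 of 22. Oxidative phosphorylation genes had -0.21 and 0.14, and 20 of 49 passed. Plasma cell genes had 0.54 and -0.43, with 10 of 17. The interferon list had 1.05 and 0.41, with 14 of 54. The immediate early list had -0.63 and -0.12, with 8 of 29.

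**Figure D5:**
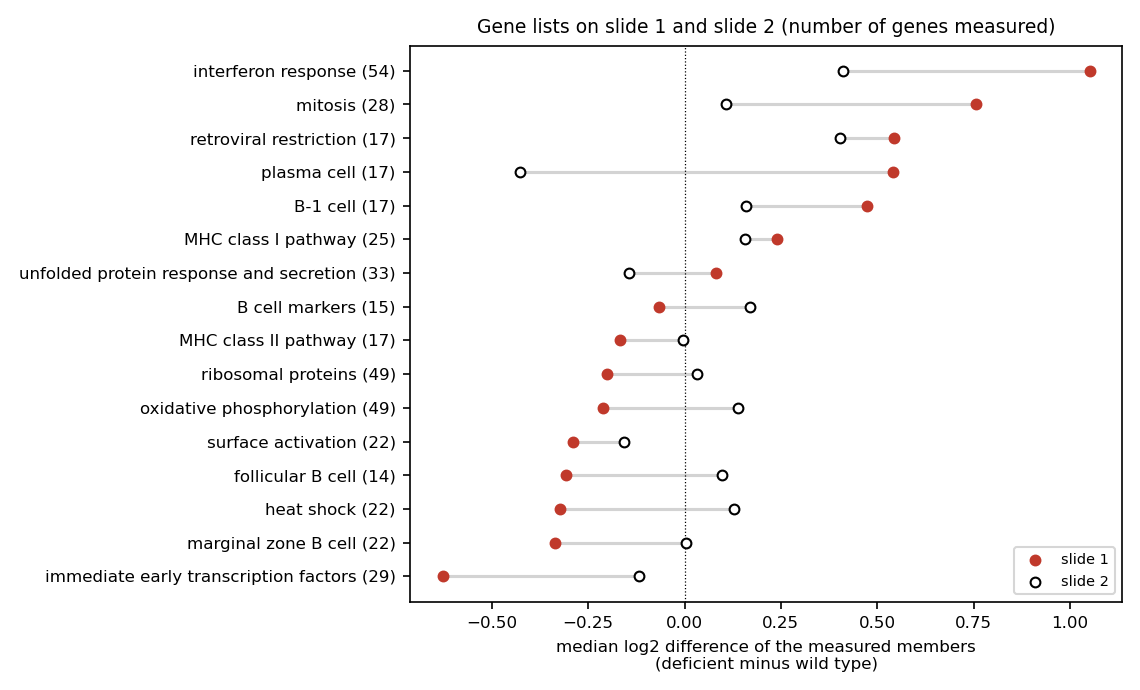
Median log2 difference (deficient minus wild type) of the measured members of 16 gene lists on slide 1 (filled) and slide 2 (open), with the number of members in brackets. The interferon list is positive on both slides (1.05 and 0.41), and the plasma cell list changes sign (0.54 and -0.43).

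By the rule of the smallest adjusted p for that difference, 12 genes called on slide 1 were taken, 6 in each direction. Slide 1 values thus entered both steps of the choice. Fcgr3, an activating IgG receptor, fell by 0.56 on slide 1 (adjusted p 0.0077) and was 1.84 higher on slide 2 (adjusted p 7.58e-06; difference between slides 2.40, adjusted p 6.01e-08). Slc37a4, the glucose-6-phosphate carrier, fell by 0.45 against 1.26, Esd, an esterase, by 0.35 against 0.90, and Fdxacb1 by 0.75 against 0.27. Itln1 and Ifi202b fell on slide 1, where no deficient array was well above background. On slide 2 Ifi202b was not well above background on any array, so no difference can be read there, and Itln1 was so on 2 of 4 deficient arrays, with a difference of -1.66. In the other direction, Serpina3f, a protease inhibitor, stood at 2.23, 2.86, 1.71 and 1.90 on the deficient arrays and -0.78, -0.59, -0.80 and -0.92 on the wild-type arrays on slide 1 and rose by 2.95, against -0.56 on slide 2 (adjusted p 1.62e-05 for the difference). Csf1, the macrophage growth factor, rose by 1.52 against -0.45, Ly6i by 1.17 against -0.31 and Prx, periaxin, by 0.66 against -0.58. Pydc3 rose by 2.55 against 0.12 and Pou6f1 by 4.86 against 2.73, so that Pou6f1 rose on both. The slide 1 call of Esd was lost without any 1 array other than deficient array 10 (adjusted p 0.0568 to 0.0846), and that of Slc37a4 without any 1 array other than deficient array 11 or 12 (0.0627 to 0.0891). With the array column as a block both were lost (0.0717 for Esd and 0.0683 for Slc37a4).

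Among the genes with the largest slide 1 difference, many lay at the detection floor on slide 2. Vsig8 was not well above background on any deficient array of either slide, and the lower bound of its decrease was 5.23-fold in the first set and 6.47-fold in the second. Rab4a fell on both slides (adjusted p 5.23e-05 on slide 2), with 1 and 2 of 4 deficient arrays well above background. Mnda rose on both (adjusted p 1.86e-06 on slide 2), with 1 of 4 wild-type arrays of slide 2 well above background. Camk2b and Gstt1, well above background on all arrays of slide 2, rose there by 2.43 and 1.35 (adjusted p 5.23e-05 and 0.0188). Sema5a, Pydc4 and Car9 were not well above background on any wild-type array of slide 2. They rose there at least 2.24-fold, 2.28-fold and 2.34-fold (adjusted p 9.46e-05, 2.86e-05 and 0.000174). Olfr433 was not well above background on any deficient array of slide 2 and fell at least 2.51-fold (adjusted p 0.0154). Tcstv3, Klri2 and Spon1 were not well above background on any slide 2 array of either genotype, so no difference can be read there. Tnfrsf17, which rose on slide 1, was not well above background on any deficient array of slide 2, where it fell at least 2.56-fold (adjusted p 0.0101).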

How the data were processed

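Total RNA from B220+ splenic B cells was measured on 1-colour Agilent mouse arrays, 1 sample per array. Per the file headers, the deposited intensity values were made with Agilent Feature Extraction 10.7.3.1, which subtracted background, detrended the signal and set a surrogate for dim spots. No normalization between arrays is recorded there. The deposited value table holds log2 values of the same arrays, scaled by the authors so that column medians agree within a slide (5.58 to 5.60 on slide 1); its method is not given in the sources used here, and it served as an alternative. No column of values was left unmapped (0).

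Processed signals were taken as log2 minus the array's 75th percentile, without control spots and spots marked as outliers. Spots of a probe were averaged, and a probe was tested where it was well above background on at least 4 of the 8 arrays, which left 26984 probes. A gene was read from 1 probe, giving 19187 genes. Deficient and wild-type arrays were compared with limma 3.58.1 (lmFit and eBayes) in R 4.3.3, fitted to the 8 arrays alone, with Benjamini-Hochberg adjustment over all genes or all probes. The difference between slides was a contrast over all 16 arrays. The fit was tested on simulated data. Where a group was not well above background on any array, the fold is a lower bound under the main processing, against the lowest signal well above background. The number of arrays limits the precision. Gene symbols are those of the array. By accession, 27428 probes matched a RefSeq gene, of which 2788 have another current symbol. Motif shares count genes of the RefSeq promoter table.

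Named genes included the 15 with the largest difference in each direction among called genes outside the locus whose groups did not overlap. All 4 arrays of their higher group had to be well above background. The 4 smallest adjusted p of each list described and members with an explained role were also named. So were the 6 smallest adjusted p for the slide difference in each direction. For the 15 and the 6, genes named only by a clone, RIKEN, LOC, Gm or transcript number, an accession or coordinates were passed over. Some genes that the rule names are not reported here. The comparison, the gene lists and these rules were chosen with earlier results of these data known. The alternatives were other scalings, background correction, filters, probe summaries, spread models, the array column as a block and each array left out; the median of the kappa variable probes without each array was added after seeing the data.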

Additional observations from a re-analysis of the deposited data

Results flagged for a closer look

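Within a group of 4 arrays, a value set far from the other 3 was found for several results on slide 1. About 1 in 20 groups is marked this way by chance. The highest array stood apart for Oasl2 among wild-type arrays (array 5, -4.23), for Mnda and Mmel1 among deficient arrays (array 10, 1.29 and -4.08), for Dusp6 among wild-type arrays (array 6, 5.16), for Fcgr3 among wild-type arrays (array 8, 2.06), and for Ly6c1 and Tbx21 among deficient arrays (array 10, 7.94 and 3.72). The lowest array stood apart for Zbp1 among deficient arrays (array 9, 2.03), Tnip1 among deficient arrays (array 11, 4.81), Eaf2 among wild-type arrays (array 2, 5.60), Ly6c1 among wild-type arrays (array 6, 6.38) and the first gamma 1 probe among deficient arrays (array 12, -6.17).

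The genotype difference of many named genes was not the same on both slides by the test of the difference itself, given here as slide 2 minus slide 1 on the log2 scale. Among genes well above background on at least 1 array of each genotype on each slide, it was positive for Mnda 3.11, Fam13c 2.41, Fcgr3 2.40, Mmel1 2.24, Cd209d 1.99, Slc37a4 1.70, Klf6 1.40, Dusp1 1.34, Esd 1.25, Ly86 1.203, Nfkbid 1.12, Nr4a1 1.03, Fdxacb1 1.02, Cd40 0.94, Tnfaip3 0.94, Cd200 0.83, Junb 0.81, Hsp90aa1 0.80, Tm6sf1 0.74, Dnaja1 0.73, Hspd1 0.72, Dnajb1 0.72, Cd5 0.71, Gpr183 0.71, Tnip1 0.66, Dusp2 0.57, Hspe1 0.55, Aim2 0.54 and Ms4a1 0.53. Of these, Mnda passed background on slide 2 in 1 of 4 wild-type samples, and Mmel1 on slide 1 in 1 of 4 deficient samples. It was negative for Serpina3f -3.51, Pydc3 -2.43, Pou6f1 -2.13, Bhlhe41 -2.02, Csf1 -1.97, Creb3l2 -1.94, Cd28 -1.86, Prdm1 -1.76, Oas3 -1.69, Vwf -1.58, Zbtb32 -1.52, Spn -1.49, Ly6i -1.48, Apoe -1.39, Zbp1 -1.29, Dusp14 -1.27, H2-T10 -1.24, Prx -1.24, Bub1b -1.22, Ly6a -0.82, H2-Q7 -0.68, Ly6c1 -0.66, Irgm1 -0.56 and H2-K1 -0.38.

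For other genes, at least 1 genotype on at least 1 slide was not well above background on any array. Their fitted values depend on signals at the detection floor and are no measure of size. They were Itln1 5.00, Ifi202b 4.75, Klra17 3.15, Drd5 3.03, Rnd3 2.49 and Hes1 1.39, and Klri2 -5.20, Tcstv3 -5.19, Oasl2 -4.28, Dnm3 -4.21, Tnfrsf17 -4.12, Col5a3 -4.12, Ccl8 -4.02, Fam101a -3.75, Sema5a -3.69, Spon1 -3.57, Pydc4 -2.29 and Camk2b -2.20.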

How the results depend on the processing

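None of the named genes changed direction under the alternatives run. The balance of calls did: increases were 39.6% of the calls, but 55.1% without a filter on dim probes, 51.2% by the authors' deposited values and 50.5% with median scaling. Of 96 named genes past the threshold, 68 stayed past it without any 1 array and 28 did not, and 39 were lost when dim probes were kept in the test. No paired analysis was possible because the labels of slide 1 give the groups no shared replicate numbers. The array column, a position on the slide and not a labelled pair, was used as a block instead, and 7 named genes lost their call under it. Median scaling lost Rgs18, Dusp2, Slc37a4, Esd, Ms4a1, Cybb and Ccr2 (adjusted p 0.0515 to 0.0876). Quantile normalization lost Rgs18, Dusp2, Slc37a4 and Esd (0.0519 to 0.0688), and the authors' values lost Dusp2, Slc37a4 and Esd (0.0632 to 0.0843). Each of these 2 gained Stat2 and Bcl3. Normexp background correction lost Ccl8 (0.0929) and gained 4. With 1 spread for all 16 arrays 3 were lost, Lyz2 among them (0.246), and 12 gained. Without a filter on dim probes there were 428 increases and 349 decreases among genes, 2254 slide difference genes and 33 heavy chain variable probes that fell, and the list counts were 18 for interferon, 4 for class I, 2 for immediate early, 1 for heat shock, 1 for plasma cell and 3 for B-1 genes. With all 16 arrays sharing 1 estimate of the spread there were 2052 increases and 3611 decreases, 18 immediate early and 12 heat shock genes that fell and 10 plasma cell genes that rose. Array weights gave 1949 increases, 3518 decreases and 8 plasma cell genes. Decreases numbered 885 with median scaling and 1053 with the array column as a block, where increases were 49.9% of the calls. Quantile normalization gave 2381 slide difference genes. Immediate early genes that fell numbered 11 with normexp background correction, 11 among probes well above background on all 8 arrays and 14 with a trended, robust spread, and heat shock genes numbered 4 by the authors' deposited values. The causes were not tested. Leaving out 1 array gave 585 to 993 increases, 646 to 1118 decreases, 3067 to 4085 slide difference genes, 9 to 11 constant and 42 to 83 variable heavy chain probes that fell, 24 to 35 interferon, 7 to 11 class I, 2 to 8 plasma cell and 4 to 6 B-1 genes that rose, and 3 to 9 immediate early and 3 to 6 heat shock genes that fell. Medians of ribosomal and oxidative phosphorylation genes, -0.20 and -0.21, were -0.03 and -0.13 after quantile normalization. Signal over background limits the folds of genes that were not well above background in 1 genotype.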
